A study of Mus musculus with 6 samples.

Results

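The interleukin-6 (IL-6) family of cytokines, its receptors and the transcription factor Stat3 were followed at the mRNA level in kidneys of mice with hyperuricemia-related chronic kidney disease. The 10 genes were chosen by symbol, and all 10 were found among the 55450 genes of the count table. They were the ligand genes Il6, Lif, Osm and Il11, the receptor genes Il6ra, Lifr, Osmr and Il6st, the transcription factor gene Stat3 and the inhibitor gene Socs3. Kidney mRNA was sequenced from 6 wild-type male C57BL/6J mice that were 7 weeks old at purchase and were kept for 1 week before the study. The control group (n = 3) stands for day 0 of the design and carries the label 20% PEG, a vehicle. The day-21 group (n = 3) received adenine (0.16 g/kg) mixed with potassium oxonate (2.4 g/kg) once daily for 21 days, by gavage according to the design text. Adenine injures the tubules and potassium oxonate blocks the breakdown of uric acid, so the day-21 group differs from the control in both agents together. No group received either agent alone. The label 20% PEG is given for the control only. In the study's design the day 0 mice were killed on day 0 and the treated mice on day 21. Vehicle and age at sampling therefore cannot be told apart from the agents in these groups.

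Cytokines of this family signal through a shared receptor chain, gp130, which Il6st encodes. IL-6 and IL-11 first bind a receptor of their own, leukemia inhibitory factor (LIF) recruits the Lifr chain beside gp130, and oncostatin M (the product of Osm) acts in mice mainly through the Osmr chain beside gp130. The bound receptors activate Jak kinases, which phosphorylate Stat3, and Stat3 in turn switches on genes of acute-phase proteins, of growth control and of its own inhibitor Socs3, which binds gp130 and shuts the signal off. The activity of Stat3 is set mainly by phosphorylation, which mRNA counts do not measure.

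The 6 libraries held between 10963849 and 14333311 counts. A level of 3 counts was taken as the detection floor, which covers counting error only. Levels are given as counts and as normalized CPM, that is, counts relative to a library size scaled by the TMM method. The labels give 3 numbered replicates per group and do not say how these mice were drawn from each group, so p-values measure the spread between these libraries. The summed proximal tubule markers, 6 of 6 of them detected, lay between 9267 and 10113 normalized CPM in the control and between 1784 and 2213 in the day-21 group, as belongs to kidney tissue. Adipocyte markers summed to 36.2 normalized CPM in control replicate 3, against 0 to 7.34 in the other controls and 0.119 to 0.707 on day 21, and results without that library are given where it decides a call or moves a value by over 1.5 times, with the counts of the lists of targets. Mitochondrially encoded genes took 9.39% to 9.86% of control counts and 3.82% to 4.42% of day-21 counts. The choice of scaling mattered, since the median log2 fold change over the genes tested was 0.03 with TMM and 0.42 with library size alone.

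Across the axis, Lif, Il11, Osmr and Socs3 were called higher on day 21, and no member was called lower. Calls used edgeR's quasi-likelihood test, at a Benjamini-Hochberg p below 0.05 and more than 1.5-fold. In the lower direction 1 member, Lifr, passed the limit on adjusted p (0.0023, edgeR) but at 1.45-fold fell short of the limit on fold. DESeq2 and limma-voom called 0 members lower. The rises were 4 of the 8 members that passed the filter on low counts, where 19.6% of the 16592 genes tested were called higher and 15.5% lower. The same 4 members also passed a stricter rule, below 0.01 and more than 2-fold, which called 11.6% of all genes higher and 7.56% lower. The other members tested, Stat3, Il6ra, Il6st and Lifr, were not called, and Il6 and Osm did not pass the filter. Since Lif and Il11 had under 10 counts in each control library, they passed through their day-21 counts alone. The day-21 and control mice did not overlap in 5 of the 8 members on the higher side and in 1 (Lifr) on the lower side, against 30.7% and 26.4% of all genes tested. The shared chain and Stat3 had overlapping levels, as had Osm. Lif, Il11, Osmr, Il6ra and the inhibitor Socs3 were higher in every day-21 mouse than in any control. The same held for Il6, which is not among the 8 tested.

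**Figure D1:**
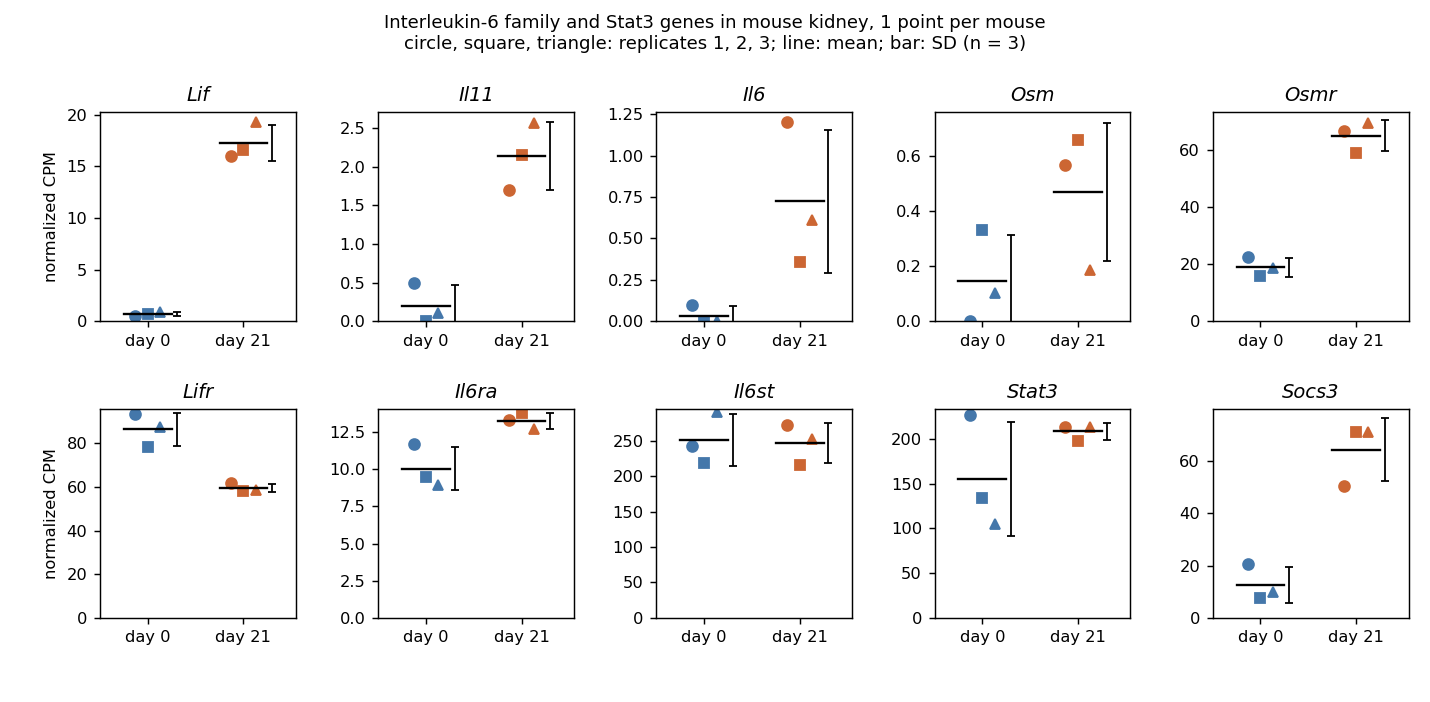
Normalized CPM of each of the 10 genes in each mouse (y axis, starting at 0) on day 0 and day 21, with the mean and SD of 3 mice. Lif, Il11, Il6, Osmr, Il6ra and Socs3 show every day-21 mouse above every control, Lifr shows the opposite order, and Osm, Il6st and Stat3 overlap.

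The ligand with the highest level and the largest change among the members was Lif, which encodes a cytokine named for its effect on leukemia cells. Lif (ENSMUSG00000034394.14) spans 4257557 to 4272514 of chromosome 11 on its forward strand, in build GRCm38 as for all positions here. The controls had 5, 8 and 9 counts and the day-21 mice 226, 278 and 315. The groups were far apart, and the 3 day-21 mice lay close together. In normalized CPM, Lif rose from 0.696 ± 0.215 (SD, n = 3) to 17.3 ± 1.77 (SD, n = 3). This is a log2 fold change of 4.62 (standard error 0.26, edgeR, adjusted p = 1.3e-06), or 24.6-fold with a 95% confidence interval of 16.6 to 36.7.

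Il11, the gene of a cytokine linked to fibroblasts and bone marrow, followed at a lower level. Il11 (ENSMUSG00000004371.15, reverse strand of chromosome 7, 4772373 to 4782859) had 5, 0 and 1 counts in the controls and 24, 36 and 42 on day 21. Only control replicate 1 exceeded the floor among the controls, and all day-21 mice exceeded all controls. The log2 fold change was 3.43 (standard error 0.70, edgeR, adjusted p = 0.0027), with a 95% interval from 1.87 to 4.98. Its size depended on single control mice, being 5.27 without control replicate 1 and 2.78 without control replicate 2.

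Il6, which encodes the founding cytokine of the family, was near the floor throughout. Il6 (ENSMUSG00000025746.11, forward strand of chromosome 5, 30013114 to 30019981) had 1, 0 and 0 counts in the controls, all at or under the floor of 3 counts per library. On day 21 the counts were 17, 6 and 10, so that every treated mouse lay above every control. The mean day-21 level was at least 2.53-fold higher than the control, taken at the floor. By the exact permutation test, two-sided, p was 0.1, which is the lowest that 3 mice against 3 can reach. Too few counts kept Il6 out of the fit, and without a filter edgeR called it higher (adjusted p = 0.0037), as it did 13.4% of the 26914 genes with a count. Standard errors without a filter differed from the main fit, at 0.16 against 0.31 for Socs3 and 0.30 against 0.26 for Lif. The adjusted p of Lif was 8e-51 there (edgeR), against 1.3e-06, so the value for Il6 is not comparable with the main calls.

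Osm, the oncostatin M gene of myeloid cells, showed no detectable difference at this depth. Osm (ENSMUSG00000058755.3, forward strand of chromosome 11, 4236420 to 4241026) was counted 0, 4 and 1 times in the controls and 8, 11 and 3 on day 21. Day-21 replicate 3 lay below control replicate 2, and the groups overlapped (two-sided exact permutation test, p = 0.2). Without a filter, edgeR gave an adjusted p of 0.31.

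Sequence upstream of the start sites was read for the 9 members listed in the RefSeq promoter table of GRCm38.p6, which holds no entry for Osm. A window of 250 bases before each start was searched on both strands for TTCNNNGAA, the letters a Stat dimer binds, and for TGANTCA, the letters of AP-1 factors. Both motifs read the same on both strands, and no matches overlapped. Among the 32851 start sites of the table, 7.02% had the Stat letters and 6.75% the AP-1 letters. Of the members, Socs3 alone had the Stat letters, beginning 154 bases before its start, and the 3 ligand genes with an entry alone had the AP-1 letters, Lif at 228, Il11 at 98 and Il6 at 249 bases before a start. The 4 windows with a match are shown. Windows without a match are not printed, among them that of Osmr, which lies wholly in an annotated exon. Capitals mark the motif, each stretch stops at the first base of an annotated exon, and the Il11 window belongs to the inner of a pair of starts.
Lif, chr11:4257318-4257556, forward strand: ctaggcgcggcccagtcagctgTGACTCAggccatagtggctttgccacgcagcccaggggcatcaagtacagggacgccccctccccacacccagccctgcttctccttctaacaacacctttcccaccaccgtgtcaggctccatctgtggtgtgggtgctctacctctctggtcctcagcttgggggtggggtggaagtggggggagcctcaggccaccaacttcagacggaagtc
Il11, chr7:4778142-4778391, reverse strand: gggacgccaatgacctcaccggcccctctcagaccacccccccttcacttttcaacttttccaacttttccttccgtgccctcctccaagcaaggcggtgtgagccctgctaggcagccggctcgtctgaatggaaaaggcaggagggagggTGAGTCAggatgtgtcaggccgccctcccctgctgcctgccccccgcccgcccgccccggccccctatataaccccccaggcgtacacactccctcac
Il6, chr5:30012864-30013113, forward strand: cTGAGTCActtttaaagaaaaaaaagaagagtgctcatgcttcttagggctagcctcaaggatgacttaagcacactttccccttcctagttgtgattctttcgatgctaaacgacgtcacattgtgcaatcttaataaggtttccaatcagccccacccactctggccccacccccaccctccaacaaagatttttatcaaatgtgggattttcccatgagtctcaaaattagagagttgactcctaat
Socs3, chr11:117969452-117969616, reverse strand: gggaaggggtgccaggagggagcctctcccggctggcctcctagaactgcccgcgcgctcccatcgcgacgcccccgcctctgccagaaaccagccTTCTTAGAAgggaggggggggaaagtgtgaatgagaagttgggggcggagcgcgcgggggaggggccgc
The Lif and Il6 stretches lie outside the annotated genes of the same name, and those of Il11 and Socs3 lie within them, between exons. These matches describe letters only, and no binding was measured.

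The receptor chains did not move together. Osmr, the chain that pairs with gp130 for oncostatin M, rose, while the values of Lifr were lower on day 21 and those of Il6st overlapped. Osmr (ENSMUSG00000022146.12, reverse strand of chromosome 15, 6813577 to 6874969) had 223, 190 and 181 counts in the controls and 941, 987 and 1134 on day 21. In normalized CPM, it rose from 18.9 ± 3.36 to 65.0 ± 5.46 (SD, n = 3 each). The difference on the log2 scale was 1.78 (standard error 0.15, edgeR, adjusted p = 9.6e-06), a 3.44-fold rise with a 95% interval of 2.74 to 4.32.

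Lifr, the chain for LIF, lies on the same chromosome as Osmr, on the forward strand (ENSMUSG00000054263.12, chromosome 15, 7090614 to 7197489). Its raw counts were nearly alike, at 931, 951 and 848 in the controls and 874, 978 and 956 on day 21. After scaling, the controls held 93.4, 78.4 and 87.4 normalized CPM and the day-21 mice 61.8, 58.3 and 58.6, so that every day-21 mouse lay below every control. The log2 fold change of -0.54 (standard error 0.11, edgeR, adjusted p = 0.0023) passed the test on p, but at 1.45-fold it fell short of the fold of 1.5. Without the limit on fold, 23.9% of all genes were called higher and 21.7% lower. Without control replicate 2 the value was -0.60 and Lifr was called lower, and with library size alone it was -0.15 (edgeR, adjusted p = 0.27). Relative to the median of the genes tested, it was -0.57 under both scalings.

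Il6st, the shared chain, was the most abundant receptor gene. Il6st (ENSMUSG00000021756.12, chromosome 13, 112464070 to 112510086) had 243, 219 and 291 normalized CPM in the controls and 272, 216 and 253 on day 21. The groups overlapped almost fully, and the log2 fold change was -0.02 with a 95% interval from -0.33 to 0.28 (edgeR, adjusted p = 0.91). With library size alone the sign turned (0.36), which is -0.06 relative to the median of the genes tested, against -0.05 with TMM.

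Il6ra, the receptor that binds IL-6 itself, was the lowest of the receptor genes on day 21. Il6ra (ENSMUSG00000027947.11, reverse strand of chromosome 3, 89864059 to 89913196) had 117, 115 and 87 counts in the controls and 188, 231 and 208 on day 21. All day-21 mice lay above all controls in normalized CPM, by a small margin, since control replicate 1 reached 11.7 and day-21 replicate 3 had 12.7. The log2 fold change of 0.40 (standard error 0.17, edgeR, adjusted p = 0.075) was not called. With library size alone it was 0.79 and was called, which is 0.37 above the median of all genes in both cases. Exons of the antisense gene Gm42809 hold 2.80% of the exon bases of Il6ra, and the strand setting of the counting was not given.

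**Figure D2:**
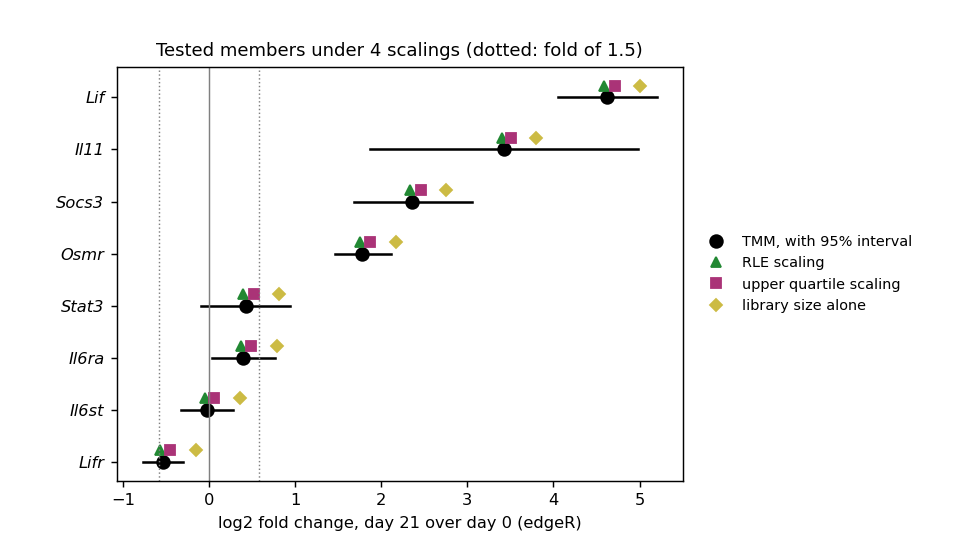
Log2 fold change of the 8 tested members, day 21 over day 0, from edgeR with TMM scaling (circles, bars are 95% intervals) and with 3 other scalings (points above each circle), with the fold of 1.5 as dotted lines. Lif, Il11, Socs3 and Osmr lie beyond the upper line under each scaling, while Stat3 and Il6ra cross it only with library size alone.

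The transcription factor Stat3 itself was not called. Stat3 (ENSMUSG00000004040.16, reverse strand of chromosome 11, 100885098 to 100939540) had 2264, 1628 and 1018 counts in the controls and 3027, 3326 and 3487 on day 21. In normalized CPM, the day-21 mice lay close together at 214, 198 and 214, whereas the controls spread from 105 to 227. Control replicate 1 had the highest value of all 6 mice, and the groups overlapped. The log2 fold change was 0.43 with a 95% interval from -0.09 to 0.94 (edgeR, adjusted p = 0.16). Without control replicate 1 it was 0.78 (edgeR, adjusted p = 0.0012) and Stat3 was called higher, and without control replicate 3 it was 0.20. With library size alone it was 0.81 and was called, 0.39 above the median of all genes as with TMM. Exons of Stat5a on the other strand hold 0.76% of its exon bases.

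Socs3, the feedback inhibitor, rose. Socs3 (ENSMUSG00000053113.3, reverse strand of chromosome 11, 117966079 to 117970047) had 203, 91 and 96 counts in the controls and 711, 1196 and 1164 on day 21. In normalized CPM the controls held 20.4, 7.5 and 9.89 and the day-21 mice 50.3, 71.3 and 71.3. Control replicate 1 was again the highest control, and the lowest day-21 mouse was still above it. The log2 fold change was 2.36 (standard error 0.31, edgeR, adjusted p = 0.00016), or 5.14-fold with a 95% interval of 3.19 to 8.29. Without control replicate 1 it was 2.88.

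Ratios between 2 members of the same library do not depend on the scaling between libraries, and 5 were computed. The ratio of Osmr to Lifr counts had log2 values of -2.06, -2.32 and -2.22 in the controls and 0.11, 0.01 and 0.25 on day 21. Thus Lifr exceeded Osmr in each control, and the counts of both were nearly level in each day-21 mouse. The ratio was 5.01-fold higher on day 21 (difference 2.32 on the log2 scale). Per length of exon, Osmr amounted to 0.178 to 0.213 of Lifr in the controls and to 0.898 to 1.06 of Lifr on day 21.

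Against the shared chain Il6st, Osmr was 3.51-fold higher on day 21 (log2 difference 1.81) and Lifr was lower by a log2 difference of -0.51. The ratio of Il6ra to Il6st differed least, by 0.42, and its groups were parted only by log2 values of -4.37 in control replicate 1 and -4.35 in day-21 replicate 1. Without control replicate 3 this last difference was 0.24 and the groups still did not overlap in the mice kept. Socs3 per Stat3 had log2 ratios of -3.48, -4.15 and -3.40 in the controls and -2.09, -1.48 and -1.58 on day 21, a 3.89-fold difference. The groups did not overlap for any of the 5 ratios (p = 0.1 for each by the exact permutation test, two-sided, the lowest this design can reach, and 0.1 after Benjamini-Hochberg adjustment over the 5).

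**Figure D3:**
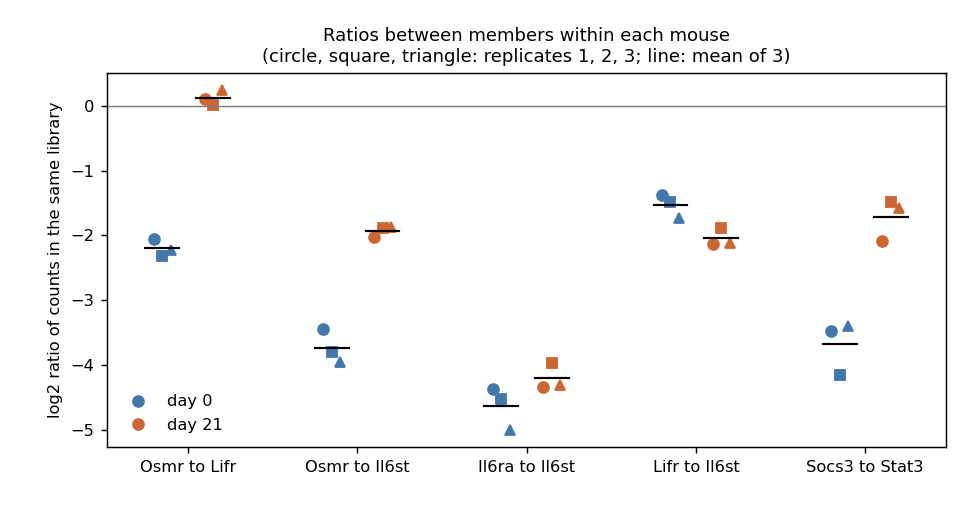
Log2 ratio of the counts of 2 members in the same library (y axis) for each mouse, day 0 beside day 21, with the mean of 3 mice as a line. Osmr to Lifr moved from about -2.20 to 0.12 on average, and the groups lie nearest to each other for Il6ra to Il6st.

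The order of the members by level, in normalized RPKM (normalized CPM per kilobase of exon), was compared within each group. In the controls Il6st stood at 22.6 ± 3.29 and Stat3 at 16.3 ± 6.69 (SD, n = 3), which overlapped. Lifr at 8.02 ± 0.699, Socs3 at 4.35 ± 2.36 and Osmr at 1.56 ± 0.277 followed without overlap between neighbours, and Osmr overlapped Il6ra at 1.16 ± 0.170. The ligands were lowest, from 0.160 ± 0.0495 for Lif down to 0.0138 ± 0.0238 for Il6, with overlap between all neighbours among them. On day 21 Il6st at 22.3 ± 2.55, Socs3 at 22.2 ± 4.21 and Stat3 at 21.9 ± 0.931 could not be ranked against each other. Lifr at 5.53 ± 0.179 and Osmr at 5.36 ± 0.451 also overlapped. Lif at 3.97 ± 0.406 then lay above Il6ra at 1.54 ± 0.0602 and Il11 at 1.03 ± 0.210, with no overlap, and Il6 and Osm came last. The ligand Lif thus stood below the receptor gene Il6ra in the controls and above it on day 21.

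The rest of the family was followed with 12 further genes of ligands and receptors. Of the 7 that passed the filter, 4 were called higher and 1 lower, against 19.6% and 15.5% of all genes tested, with a median log2 fold change of 1.5, against 0.03 for the whole table. Clcf1, the gene of a cardiotrophin-like cytokine, rose in every day-21 mouse above every control. Clcf1 had 20, 21 and 15 counts in the controls and 322, 424 and 402 on day 21, which is 3.78 on the log2 scale (standard error 0.19). Ebi3, a subunit of interleukin-27, rose by 2.71 (standard error 0.47) on the log2 scale, having passed the filter through its day-21 counts alone. Il11ra1, the receptor of IL-11, fell from 80.4 ± 5.38 to 46.4 ± 3.38 normalized CPM, a log2 fold change of -0.79 (standard error 0.11), which was -0.40 and no longer called with library size alone. Thus Il11 was called higher and the gene of its receptor lower with TMM scaling.

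Per length, the 10 ligand genes compared changed their order. Ctf1, the cardiotrophin-1 gene, was highest of them in the controls at 2.22 ± 0.406 normalized RPKM (SD, n = 3), with no overlap with the next. On day 21, Clcf1 was highest of them at 6.37 ± 0.345, followed without overlap by Lif at 3.97 ± 0.406, which overlapped Ebi3 at 3.40 ± 1.42. Ctf1 was at 2.92 ± 0.642 on day 21 and was not called (edgeR, adjusted p = 0.25); it was named after its values were seen. Il6 was near 0 in the controls, where it overlapped Osm and Ctf2, and stood at 0.298 ± 0.178 on day 21, where it overlapped Osm and Il27. Il31, also of the family, had no count in any mouse.

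**Figure D4:**
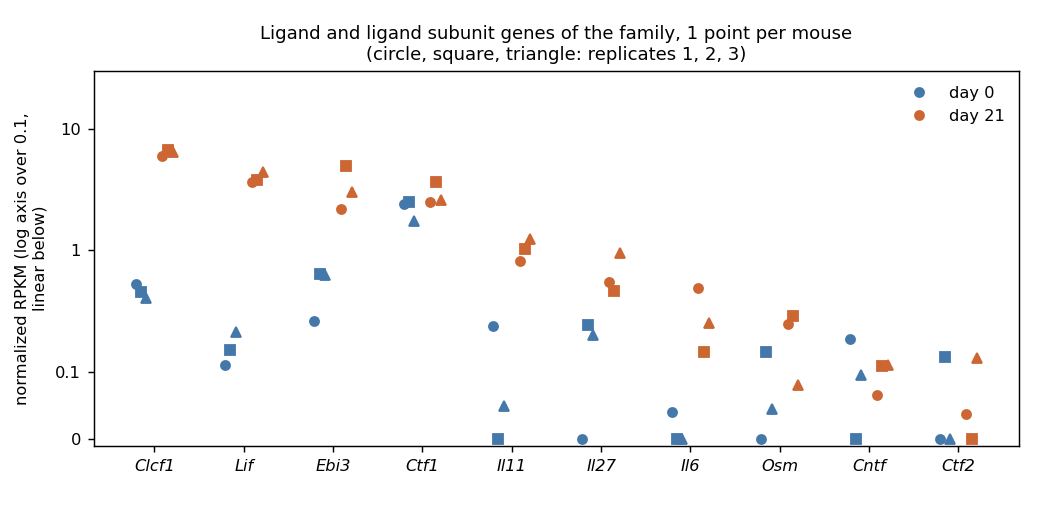
Normalized RPKM of 10 ligand and ligand subunit genes of the family in each mouse (y axis, logarithmic over 0.1 and linear below), ordered by their day-21 mean. Clcf1 and Lif lie far above their controls and above Il6 and Osm on day 21.

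Among the Jak kinases and the other Stat genes, 4 of the 9 tested were called higher and 1 lower (19.6% and 15.5% of all genes), with a median log2 fold change of 0.39. Stat2, which carries interferon signals, rose by 1.84 (standard error 0.17) on the log2 scale, and Jak3, a kinase of leukocyte cytokine receptors, rose by 1.05 (standard error 0.16). Stat5b, used by growth hormone receptors, fell by 0.61 (standard error 0.12), which was no longer called with upper quartile scaling, with library size alone, with the stricter filter, without control replicate 3 or without day-21 replicate 2. Jak1, the main kinase at gp130, had 201 ± 29.9 normalized CPM in the controls and 209 ± 18.2 on day 21 (SD, n = 3 each) and was not called (edgeR, adjusted p = 0.76). It was named after its values were seen.

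Of 15 inhibitors and phosphatases of the pathway, all of them tested, 5 were called higher and 1 lower, with a median of 0.15, where 19.6% of all genes were called higher and 15.5% lower. Socs1, which blocks Jak kinases, went from 3, 8 and 7 counts to 24, 63 and 40, a log2 fold change of 2.21 (standard error 0.48). With under 10 counts in each control, it passed the filter through its day-21 counts alone. Socs2 rose by 1.36 (standard error 0.31) and Cish, another feedback inhibitor, by 1.06 (standard error 0.31), although Cish was not called without control replicate 2 or without day-21 replicate 2. Socs7 fell by 0.74 (standard error 0.13), and with library size alone it was not called (-0.36). All 4 genes of receptor shedding were tested, and 2 were called higher, with a median of 0.52 and the same background. Adam10, a membrane protease, rose by 0.61 (standard error 0.12), close to the fold of 1.5, and was not called with RLE scaling, with DESeq2 or without control replicate 2. Rhbdf2, a partner of Adam17, rose by 1.10 (standard error 0.18). Adam17 itself had a log2 fold change of 0.42 and Rhbdf1 of -0.02, and neither was called.

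Known target genes of Stat3 moved in both directions. Of 18 listed, all tested, 10 were called higher, 3 lower and 5 not called, with a median log2 fold change of 0.73. The background was 19.6% of all genes higher and 15.5% lower, so that the share of targets called lower was near it. Without control replicate 3, 9 were called higher, and without control replicate 2 or day-21 replicate 2, 8 were. Timp1 and Birc5 had under 10 counts in each control and passed the filter through their day-21 counts alone. Timp1, an inhibitor of matrix proteases, rose from 9, 6 and 2 counts to 586, 603 and 669, a log2 fold change of 6.18 (standard error 0.28). Birc5 (survivin, an inhibitor of cell death expressed in dividing cells) rose by 4.18 (standard error 0.37) and the immediate early gene Fos by 2.09 (standard error 0.28). Pim3, a survival kinase, fell by 1.24 (standard error 0.14), Vegfa, the vascular growth factor, by 1.15 (standard error 0.11) and the repressor Bcl6 by 1.07 (standard error 0.24). Many of these genes also answer to other pathways.

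Most of the tested acute-phase genes, which IL-6 family cytokines induce in liver, were called higher. Of 22 listed, 13 passed the filter, 11 were called higher and the other 2, Hp and A2m, had positive fold changes without a call. The median was 2.57, and 19.6% of all genes were called higher. Itih3, called higher and named after its values were seen, had 11, 11 and 7 counts in the controls and 56, 60 and 68 on day 21. It needed its day-21 counts to pass the filter. The number called higher was 12 without control replicate 3. Apcs, a gene outside the filter that was named after its values were seen, ran the other way, with 15, 8 and 13 counts in the controls and 8, 6 and 8 on day 21, and every day-21 mouse lay below every control in normalized CPM. Without control replicate 2 it passed the filter and was the 1 acute-phase gene called lower. Lcn2, the iron-scavenging lipocalin, went from 75, 82 and 53 counts to 8013, 8078 and 7866, a log2 fold change of 6.27 (standard error 0.16). The complement gene C3 rose by 5.83 (standard error 0.22) and the protease inhibitor gene Serpina3n by 3.69 (standard error 0.29). Each of the 9 genes that did not pass the filter had at most 29 counts in any mouse, and Saa2 had none.

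**Figure D5:**
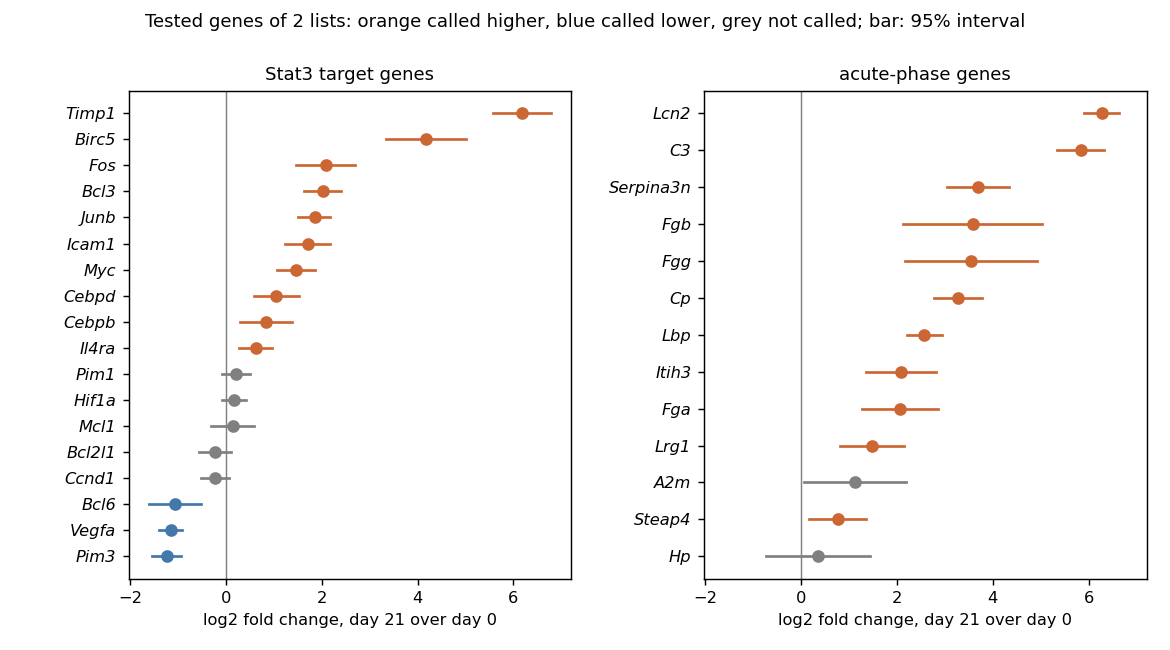
Log2 fold change, day 21 over day 0, with 95% interval (x axis) for the tested genes of the lists of Stat3 targets and of acute-phase genes. Targets of Stat3 run from -1.24 for Pim3 to 6.18 for Timp1, and no tested acute-phase gene lies below 0.

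The genes nearest to Osmr and Stat3 in pattern were sought over the 6 mice, by the root mean square difference of log2 normalized CPM after each gene's own mean was removed. Nearest to Osmr were Slc7a2 (0.0272), Gm6169 (0.0702) and Trpm2 (0.0868), with log2 fold changes of 1.87, 2.04 and 2.36. Nearest to Stat3 were Hhat (0.0645), the pseudogene Gm8775 (0.0958) and E230016M11Rik (0.10), with log2 fold changes of 0.59, 0.68 and 0.46. Gm8775 had only 2 to 14 counts per mouse, and this likeness is a description over a pair of groups.

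Marker lists of several cell types also differed between the groups, some higher and some lower on day 21. In bulk tissue, more cells of a type and more RNA per cell cannot be told apart. Over all genes tested, 19.6% were called higher and 15.5% lower. All 8 macrophage markers were called higher, and their sum lay between 93.3 and 137 normalized CPM in the controls and between 844 and 1153 on day 21. All 6 fibroblast and myofibroblast markers were called higher, with sums of 229 to 352 and 1106 to 2149.6. Their lowest log2 fold change was 0.60. In 3 of these 6 every day-21 mouse lay above every control, against all 8 macrophage markers and 30.7% of all genes tested. All 5 T cell markers were called higher (sums of 3.21 to 8.74 and 21.6 to 24.0), while 1 of 4 B cell markers was tested and not called (0.928 to 2.97 and 2.21 to 4.06). Of 8 neutrophil markers, 3 were tested and 2 were called lower (sums of 11.6 to 23.6 and 4.00 to 5.87), and the listed genes Mpo and Elane had no count in any mouse. Proximal tubule markers were called lower in 6 of 6, and those of the thick ascending limb and distal convoluted tubule in 3 of 4 (sums of 6097 to 7288 and 3818 to 4302). Those of the collecting duct were called lower in 3 of 5 (540.3 to 659 and 265 to 317) and of podocytes in 3 of 5 (400.4 to 639.5 and 308 to 359). Of the endothelium markers, 1 of 5 was called lower, near the share over all genes, with sums of 314 to 357 and 179 to 285. No adipocyte marker passed the filter. The part of these shifts in the values of Lif, Il11, Osmr, Lifr, Socs3 and the lists was not tested.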

How the data were processed

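Total RNA from kidney tissue was sequenced by the authors as paired-end reads, aligned to a reference genome and deposited as raw read counts per gene, with no normalization, for each mouse separately. The submitters' processing notes name TopHat and mm10, while the counting program and its strand setting are not given in the sources used here. All 55450 identifiers are those of GENCODE mouse release 21 (GRCm38), which supplied symbols, positions and exon lengths. Columns were assigned to samples by the code in each sample title.

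Tests were run with edgeR 4.0.16 in R 4.3.3 (filterByExpr at 10 counts per library and 15 in total, TMM scaling, quasi-likelihood test, no replicate block). The fit covered 16592 genes, and p-values were Benjamini-Hochberg adjusted over all of them. Calls needed an adjusted p below 0.05 and more than 1.5-fold, the study's thresholds. Standard errors are the log2 fold change divided by the square root of F. Single values and within-library ratios (pseudocount 0.5) were compared by exact permutation tests. The edgeR, limma-voom and DESeq2 fits, with the main filter, were tested on simulated counts with known changes. Alternatives were RLE, upper quartile or library-size scaling, no filter or a mean of at least 50 counts, DESeq2 1.42.0, limma-voom (limma 3.58.1), leaving out each mouse, the replicate number as a block, 2 other thresholds, and removal of mitochondrially encoded and the 20 highest genes.

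Genes named are the 10 members, in each of 6 pathway lists up to 3 of the largest rises and falls among called genes whose groups did not overlap, all genes of the list of 4 shedding genes, and the 3 genes nearest in pattern to Osmr and to Stat3. The 6 lists (other ligands and receptors, Jak and Stat genes, inhibitors and phosphatases, shedding genes, Stat3 targets, acute-phase genes) and 11 lists of cell type markers were used. The members and lists were chosen with earlier results of these data known. Some genes that the rule names are not reported here.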

Additional observations from a re-analysis of the deposited data

How the results depend on the processing

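Members called higher numbered 4 to 5 with each mouse left out (5 without control replicate 1, which added Stat3). They numbered 6 with library size alone, 5 with no filter and 3 with a mean of at least 50 counts, since Il11 fell below it. Over all genes, the main fit called 3249 of 16592 higher, and library size alone called 5982 of 16592. No filter gave 3614 of 26914, the mean of at least 50 counts 2540 of 13143, and leaving out control replicate 1 gave 3212 of 17225. Without control replicate 2, 2437 of 16973 genes were called lower. Members called lower numbered 0 to 1 with each mouse left out (1, Lifr, without control replicate 2) and 1, again Lifr, with no limit on fold. Calls among the other ligands and receptors fell from 5 to 3 with the mean of at least 50 counts, which tests fewer genes. With calls below 0.01 and more than 2-fold, their number went to 3 among Jak and Stat genes, 2 among inhibitors and 1 among shedding genes. Shedding genes also had 1 call with RLE scaling or DESeq2 and 1 to 2 with each mouse left out. The cause of these shifts was not tested. Il6st turned sign to 0.06 with upper quartile scaling, 0.36 with library size alone (a normalized CPM difference of 62.3), 0.00 with the mean of at least 50 counts, 0.08 without control replicate 3 and 0.07 without day-21 replicate 2 (-0.11 to 0.08 over the left-out mice). Rhbdf1 turned to 0.07, 0.37 and 0.01 under the same 3 settings, 0.02 with limma-voom, 0.01 with the replicate block, 0.21 without control replicate 1 and 0.01 without day-21 replicate 1 (-0.15 to 0.21 over the left-out mice). Lif, Osmr and Socs3 kept their call in 15 of 15 refits and Il11 in 14 of 14. The 5 ratios kept their sign with pseudocount 1 or none and with each mouse left out.

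Replicate numbers link no mice by label. Deviations of same-numbered mice correlated at -0.019, 0.165 and 0.0896, and not every mouse was closest to its own number. With the replicate block, 4 members were called higher and 0 lower, and over all genes 3235 higher and 2523 lower, against 3249 and 2572. In the block test of each ratio over the 3 numbered pairs, the exact p was 0.25, the smallest that 3 pairs allow. At these depths a change in Il6 or Osm rests on under 20 counts per library.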

Other observations

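Control replicate 1 had the highest normalized CPM of the 3 controls in 6 of the 8 tested members (Stat3, Socs3, Osmr, Lifr, Il6ra and Il11). The same library was highest among controls in 11 of 18 Stat3 target genes and 8 of 13 acute-phase genes. Among the genes of these lists that were called higher on day 21, it was highest in 17 of 21 (81.0%), against 33.5% of the 3249 genes called higher over the whole table and 32.5% of all genes tested. Fgb and Fgg, genes of fibrinogen chains, are given as examples chosen after their values were seen. Fgb had 145, 31 and 12 counts and Fgg 399, 178 and 34 in control replicates 1, 2 and 3. Its summed macrophage markers were 93.3 normalized CPM, the lowest of the controls (137 and 100.1 in the others). The lists were examined in this way after the values were seen, the genes of a list are not independent of each other, and no test was made.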
